A study of Homo sapiens with 6 samples.

Results

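The 9 genes described here encode transcription factors that carry interferon signals, namely STAT2 and 7 interferon regulatory factors (IRF1, IRF2, IRF3, IRF5, IRF7, IRF8 and IRF9), together with SOCS1, an inhibitor of the same pathway. They were taken by symbol from a table of 19899 genes, and all 9 were in it. The symbols were chosen by a list drawn up with the expression difference between BRG1 and Control samples already known, so that difference is given below as a description of these genes, and its p-values support nothing beyond it. Of the 9 genes, 7 passed the filter on low counts, as did 14246 of all genes, and IRF7 and IRF8 did not.

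The RNA came from COV434, a human ovarian cancer line counted by the study among SCCOHT lines, small cell ovarian carcinomas that lack BRG1. Every sample received the puromycin resistance plasmid pBABE-puro, with a control plasmid in the Control group (n = 3) and with PBJ5-BRG1 in the BRG1 group (n = 3). The study gives the control plasmid as pCMV-neo or pCDNA3-neo, without saying which of them COV434 received. Puromycin at 2 to 3 µg/ml was begun 24 hours after transfection and lasted 3 days. BRG1 is the SMARCA4 product and drives nucleosome remodeling by SWI/SNF complexes with its ATPase, and transcripts from the plasmid count toward its gene. The cells are a mixed population after transient transfection, and the promoter of the BRG1 plasmid is not given in the sources used here.

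STAT2 and IRF9 are subunits of ISGF3, the complex that enters the nucleus after type I or type III interferon binds its receptor and that acts on the interferon-stimulated response element (ISRE) of antiviral genes. IRF3 and IRF7 act earlier, switching on interferon genes once a sensor has detected viral nucleic acid. IRF1 is made in response to interferon gamma and inflammatory cytokines through a gamma-activated site (GAS) in its promoter, and IRF2 binds the same elements and can oppose it. IRF5 and IRF8 are known mainly from immune cells. SOCS1 is induced by interferon and blocks the Janus kinases, which closes a feedback loop.

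The promoters of these genes were read first, because the binding sites of their own pathway are known to lie there. RefSeq promoter windows (GRCh38.p14, 250 bases before to 50 after a start site) were at hand for 6 of the 9 genes, STAT2, IRF1, IRF5, IRF8, IRF9 and SOCS1, in 10 windows. Windows were searched on both strands for an ISRE core, GAAA followed after any 2 bases by GAAA, and for a GAS, TTCNNNGAA. The ISRE core was in the SOCS1 window and in no other of the 10, against 3.57% of 35116 windows of all genes. The GAS was in the IRF1 and IRF9 windows, against 7.66% of all windows. AP-1 letters, TGANTCA, were in none of the 10 (0 windows), against 7.71% of all. A match is a description of the letters and not evidence of binding. The SOCS1 and IRF1 stretches below are printed for their matches and the STAT2 stretch because it holds neither, each 5′ to 3′ on the strand of the gene and without bases in GENCODE exons. For IRF9, where all 250 upstream bases fall in annotated exons, the site is shown with 10 bases on each side. Capitals mark the ISRE core in SOCS1 and the GAS in IRF1 and IRF9, with none in STAT2.
SOCS1, chr16:11256205-11256454, minus strand: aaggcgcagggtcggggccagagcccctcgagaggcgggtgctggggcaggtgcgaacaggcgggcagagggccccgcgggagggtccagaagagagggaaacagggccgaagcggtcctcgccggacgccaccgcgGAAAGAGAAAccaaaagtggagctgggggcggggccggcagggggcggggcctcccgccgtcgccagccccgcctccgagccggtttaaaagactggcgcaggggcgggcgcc
IRF1, chr5:132490778-132491023, minus strand: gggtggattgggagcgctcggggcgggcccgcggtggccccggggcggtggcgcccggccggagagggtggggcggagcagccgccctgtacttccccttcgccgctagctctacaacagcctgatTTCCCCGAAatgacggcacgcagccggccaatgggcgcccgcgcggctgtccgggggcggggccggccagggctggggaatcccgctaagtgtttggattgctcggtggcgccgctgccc
IRF9, chr14:24161192-24161220, plus strand: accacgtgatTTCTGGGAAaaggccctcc
STAT2, chr12:56360204-56360357, minus strand: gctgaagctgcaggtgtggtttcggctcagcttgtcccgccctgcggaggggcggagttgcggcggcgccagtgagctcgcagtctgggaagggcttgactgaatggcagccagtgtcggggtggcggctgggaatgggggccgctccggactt
Counted from the start site, the first base of the match lay at -113 in SOCS1, at -124 in IRF1 and at -63 in IRF9. The IRF1 window also held GGGGAATCCC at -50, which matches looser NF-kB letters, GGG and CC with any 5 bases between. Those letters were in 58.7% of all windows and in 8 of the 10.

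The libraries held between 29699741 and 63613710 estimated counts, and BRG1 sample 3 was the shallowest. SMARCA4 was at 31.6, 36.7 and 33.3 CPM (counts scaled to library size with TMM factors) in Control and at 2316, 1714 and 1729 in BRG1 samples 1 to 3, so that the transfected gene followed the labels. Samples with the same replicate number deviated together, and values within each number are therefore given. Of the granulosa cell markers, FOXL2 and FSHR held 3 counts or fewer in every sample, while AMH, INHA and CYP19A1 were detected. The 5 markers summed to between 6.40 and 10.2 CPM in Control and between 13.8 and 19.6 in BRG1 samples. CYP19A1 ran from 0.348 to 0.689 CPM in Control and from 5.52 to 9.69 in BRG1 samples. AMH ran from 4.98 to 8.63 and from 7.38 to 10.01, and INHA from 0.848 to 1.045 and from 0.774 to 0.919. Summed T and natural killer cell markers ran from 7.47 to 14.7 CPM in Control and from 7.73 to 15.9 in BRG1 samples, nearly all of it PTPRC, with 3 of the 5 markers at 3 counts or fewer in every sample. For B cells the sums ran from 7.47 to 14.6 and from 7.81 to 16.2 (2 of 4 at 3 counts or fewer), and for myeloid cells from 7.71 to 14.7 and from 8.29 to 16.8 (1 of 6). PTPRC is in these lists too and was nearly all of both sums (7.39 to 14.5 CPM in Control and 7.67 to 15.9 in BRG1 samples). These sums are therefore not separate signals of each cell type. For fibroblasts the sums ran from 26.4 to 29.6 and from 23.4 to 29.97 (0 of 5). Endothelial markers summed to between 9.62 and 14.3 CPM in Control and between 91.9 and 107.2 in BRG1 samples (0 of 4 at 3 counts or fewer), and their part in the results was not tested. Most of that sum was TEK in Control (9.05 to 12.3 CPM) and VWF in BRG1 samples (69.9 to 79.5 CPM, against 0.562 to 1.77 in Control). In bulk RNA, fewer cells that express a gene and less of its RNA per cell cannot be told apart.

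Across all genes, edgeR called 9.57% of 14246 higher with BRG1 and 1.02% lower at an adjusted p under 0.05. Of the 7 tested members it called 3 higher (STAT2, IRF9 and SOCS1) and 0 lower. With the replicate number as a block it called 13.7% of all genes higher and 5.68% lower, and 5 members higher, IRF1 and IRF2 being added, and 0 lower. At an unadjusted p under 0.05 none was lower in either fit, and DESeq2 also called 0 lower. Every BRG1 sample lay above every Control sample in 4 of the 7 (STAT2, IRF2, IRF9 and SOCS1), a pattern found in 15.9% of all tested genes. Nothing is read from these shares, because the members were chosen with the contrast known.

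**Figure D1:**
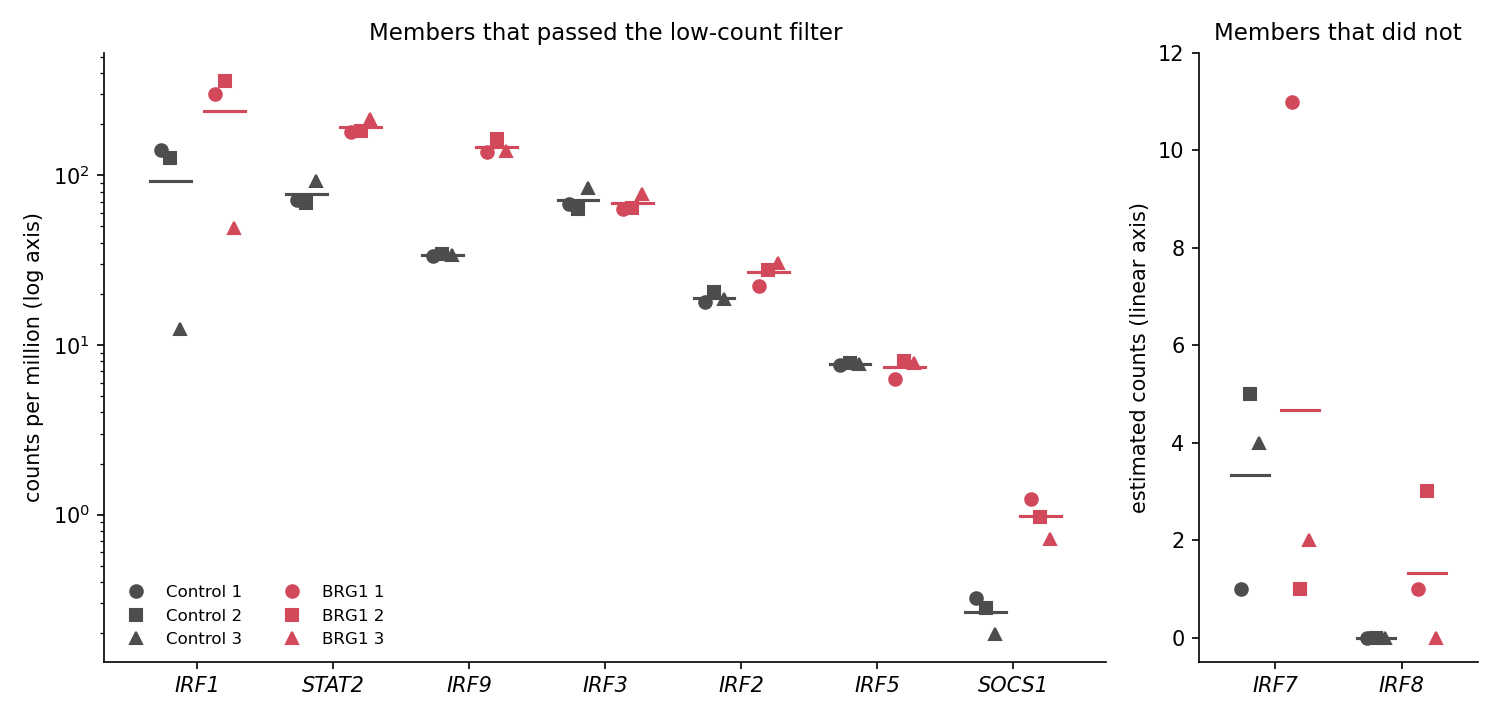
Levels of the 9 genes in each sample. The left panel gives CPM on a log axis for the 7 genes that passed the low-count filter, and the right panel gives estimated counts on a linear axis for IRF7 and IRF8. Symbols are samples 1 to 3 and horizontal lines are group means. STAT2, IRF9, IRF2 and SOCS1 do not overlap between groups, IRF1 is far lower in sample 3 of both groups, and IRF7 does not exceed 11 counts in any sample.

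The subunits of ISGF3 come first. IRF9, the DNA-binding subunit (chromosome 14, 24161234 to 24168043, plus strand), stood at 33.3, 34.5 and 33.8 CPM in Control samples 1 to 3 and at 138, 164 and 139 in BRG1 samples 1 to 3. The groups were far apart and the Control samples differed little from each other. The group means were 33.9 ± 0.640 and 147 ± 14.9 CPM (SD, n = 3). IRF9 rose by a log2 fold change of 2.12 (SE 0.113, edgeR adjusted p 6.3e-05), the largest of the 7. Within numbers 1 to 3 the fold was 4.15, 4.76 and 4.11. Exons of unnamed genes on either strand cover 27.15% of the exonic bases of IRF9, and the libraries do not keep strand, so a part of its value may belong to them.

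STAT2, which brings the transactivation domain to ISGF3 (chromosome 12, 56341597 to 56360203, minus strand), was at 71.5, 68.7 and 92.2 CPM in Control and at 181, 182 and 216 in BRG1 samples. The samples numbered 3 were the highest of their group, and the groups did not overlap. The means were 77.5 ± 12.9 and 193 ± 19.6 CPM (SD, n = 3), and STAT2 rose by a log2 fold change of 1.32 (SE 0.148, edgeR adjusted p 0.00104). The fold within numbers was 2.54, 2.66 and 2.34. STAT2 therefore rose by less than IRF9 in each of the 3 numbers. No other gene shares exons with STAT2 in the annotation.

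SOCS1, the feedback inhibitor whose promoter holds the ISRE core (chromosome 16, 11254417 to 11256204, minus strand), was scarce. It held 12, 11 and 12 estimated counts in Control and 80, 54 and 22 in BRG1 samples, which is 0.321, 0.283 and 0.197 CPM against 1.24, 0.972 and 0.722. Sample 3 was the lowest of each group and the groups did not overlap. SOCS1 rose by a log2 fold change of 1.89 (SE 0.400, edgeR adjusted p 0.0195, and 0.0505 without both samples numbered 3), with folds of 3.85, 3.44 and 3.67 within numbers. Its call was lost when Control replicate 1, 2 or 3 or BRG1 replicate 1 or 2 was left out, with edgeR adjusted p-values from 0.0567 to 0.0929 and log2 fold changes from 1.69 to 2.04. It was kept without BRG1 replicate 3 (2.10, edgeR adjusted p 0.0156).

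IRF1 showed a spread between samples unlike that of any other tested member. This activator of antiviral and antigen presentation genes (chromosome 5, 132440440 to 132508719, minus strand) was at 141, 126 and 12.4 CPM in Control and at 304, 362 and 49.1 in BRG1 samples. The samples numbered 3 were far below the rest of their group, and BRG1 sample 3 lay below Control samples 1 and 2, so the groups overlapped. Within numbers IRF1 was higher with BRG1 each time, with folds of 2.16, 2.87 and 3.98. The log2 fold change was 1.36 with a 95% interval from -0.76 to 3.47 (edgeR adjusted p 0.487). Leaving out 1 sample moved it to between 0.83, without Control replicate 3, and 1.88, without BRG1 replicate 3, and it was not called in any of these 6 fits. With the replicate block IRF1 rose by 1.53 (interval 1.16 to 1.90, edgeR adjusted p 5.7e-04). Without both samples numbered 3, an alternative added after these values were seen, it rose by 1.36 (edgeR adjusted p 0.00131). Exons of genes on the opposite strand, IRF1-AS1 among them, cover 22.9% of its exonic bases.

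**Figure D2:**
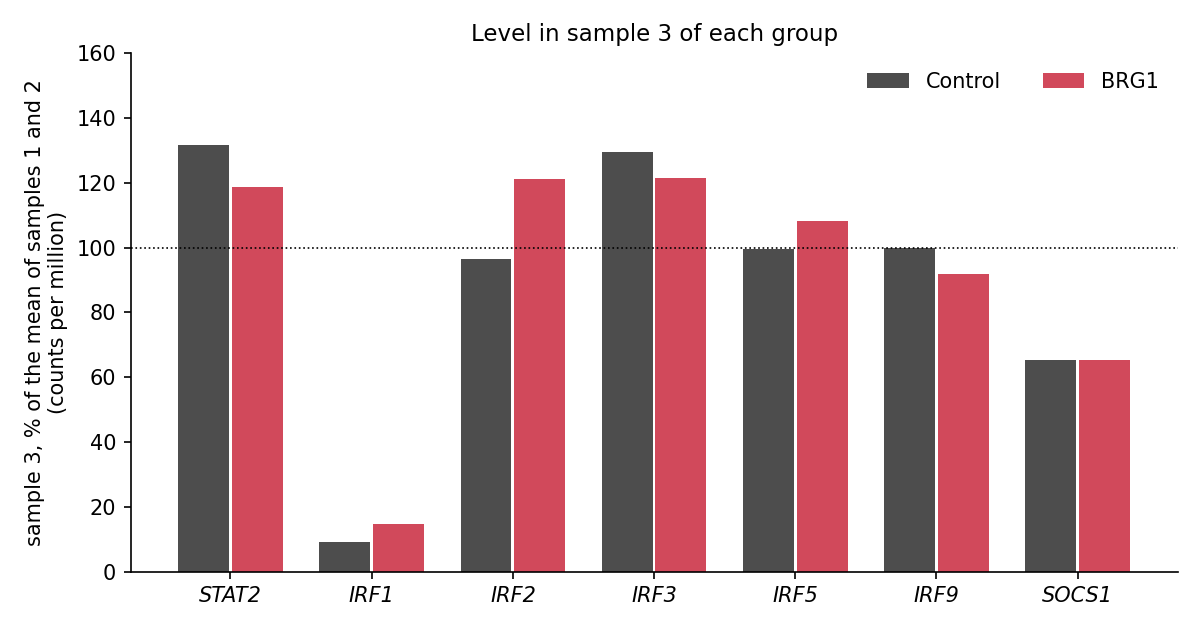
Level in sample 3 as a percentage of the mean of samples 1 and 2, in Control (grey) and BRG1 (red), from CPM. Bars start at 0 and the dotted line marks 100%. IRF1 stands at 9.26% and 14.8%, whereas the other genes lie between 65.2% and 131.6%.

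The low level of IRF1 in number 3 was uncommon among all genes. In Control it stood at 9.26% of the mean of samples 1 and 2, and in BRG1 samples at 14.8%, whereas the median ratio over all genes was 0.985 and 0.995. Of 13546 genes with more than 3 counts in every sample, 4 were as low as IRF1 in number 3 of both groups. The others, which came to notice through their values, were ID1, ID2 and DLX2. ID1 and ID2 encode inhibitors of helix-loop-helix factors and DLX2 a homeobox factor. ID1 was at 279.6, 258 and 18.0 CPM in Control and at 280.0, 348 and 20.5 in BRG1 samples. The 3 genes thus shared the low value in number 3 with IRF1, and none of the 3 was called between BRG1 and Control with or without the block. SOCS1 was at 65.2% and 65.4% in number 3, and STAT2 at 131.6% and 118.7%. The labels name no condition that sets number 3 apart.

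IRF2, the antagonist of IRF1 (chromosome 4, 184385702 to 184474558, minus strand), was at 18.0, 20.5 and 18.6 CPM in Control and at 22.4, 27.7 and 30.3 in BRG1 samples. The groups did not overlap, but the gap was small. The log2 fold change was 0.50 with a 95% interval from 0.13 to 0.86 and was not called (edgeR adjusted p 0.108). It was called with the replicate block (0.49, edgeR adjusted p 0.0251) and by DESeq2 (adjusted p 0.0270). Folds within numbers were 1.25, 1.36 and 1.63.

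IRF3 (chromosome 19, 49659569 to 49665875, minus strand), the factor that sensors activate by phosphorylation, was at 67.6, 63.0 and 84.5 CPM in Control and at 63.2, 64.7 and 77.6 in BRG1 samples. The groups overlapped. Its log2 fold change was -0.07 with a 95% interval from -0.41 to 0.27 (edgeR adjusted p 0.860), and from -0.25 to 0.13 with the block. BCL2L12 on the opposite strand covers 19.35% of its exonic bases. IRF5 (chromosome 7, 128937457 to 128950038, plus strand) was at 7.61, 7.86 and 7.70 CPM in Control and at 6.32, 8.05 and 7.78 in BRG1 samples. These groups overlapped as well, and the log2 fold change was -0.07 with an interval from -0.50 to 0.37 (edgeR adjusted p 0.898).

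**Figure D3:**
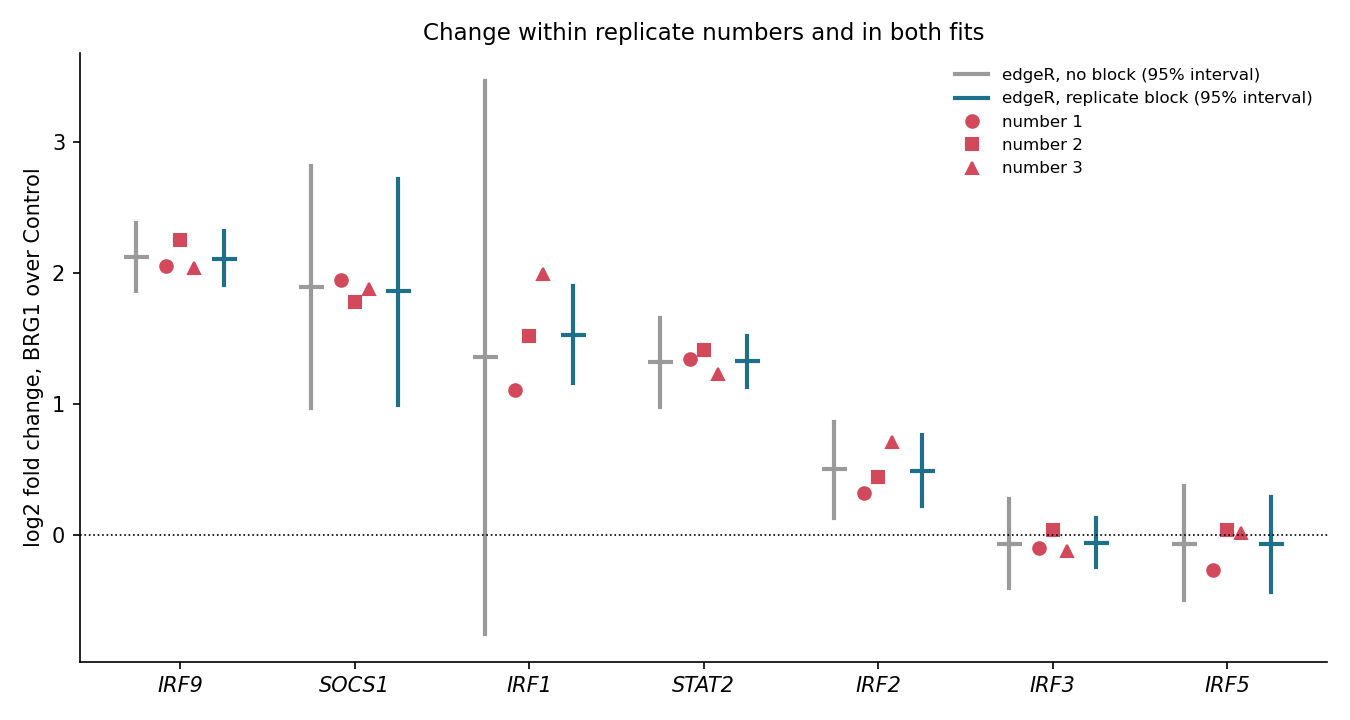
Log2 fold change of BRG1 over Control for the 7 tested genes. Red symbols are the folds within replicate numbers 1 to 3, grey lines the edgeR estimate with its 95% interval without a block, and blue lines the estimate with the replicate block. For IRF1 the interval runs from -0.76 to 3.47 without the block and from 1.16 to 1.90 with it, while IRF3 and IRF5 lie about 0 in both.

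IRF7 and IRF8 were at the edge of detection. IRF7 (chromosome 11, 612553 to 615983, minus strand), which interferon is known to induce in many cells, held 1, 5 and 4 estimated counts in Control and 11, 1 and 2 in BRG1 samples. The groups overlapped and edgeR did not test it, so a small change could not be seen at this depth. Large rises from such counts were called for some genes and left untested for others. IL15, picked after its values were seen, was called at 2, 3 and 1 counts in Control and 61, 43 and 14 in BRG1 samples. IKBKE, picked likewise, held 0, 0 and 2 counts in Control and 26, 9 and 15 in BRG1 samples. It did not pass edgeR's low-count filter. These genes do not show whether a large rise of IRF7 would have been called. For IRF7, DESeq2, which was run without that low-count filter, gave a log2 fold change of 0.25 (adjusted p 0.962). IRF8 (chromosome 16, 85899116 to 85922606, plus strand) held 0 counts in each Control sample and 1, 3 and 0 in BRG1 samples, so both groups were at or under the floor of 3 counts and no fold is given. A count of 3 stands for 0.0464 to 0.0985 CPM in these libraries, by counting error only.

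Levels were ordered within each group after division by the length of the canonical transcript, as CPM per kilobase. In Control the order was IRF3 (44.95 ± 7.10), IRF1 (26.2 ± 19.8), IRF9 (20.8 ± 0.393), STAT2 (17.6 ± 2.92), IRF2 (8.42 ± 0.581), IRF5 (2.66 ± 0.0451) and SOCS1 (0.216 ± 0.0515) (SD, n = 3). IRF7 and IRF8 came last. The samples of IRF3 and IRF1, of IRF1 and IRF9 and of IRF9 and STAT2 overlapped, so these neighbours were not separated, while from STAT2 down to SOCS1 no neighbours overlapped. In BRG1 samples IRF9 stood first (90.5 ± 9.15), followed by IRF1 (67.0 ± 46.8), STAT2 (43.9 ± 4.45) and IRF3 (42.9 ± 4.99), each overlapping the next. IRF2 (11.9 ± 1.79), IRF5 (2.55 ± 0.320) and SOCS1 (0.789 ± 0.208) kept their places below. IRF9 thus moved from below IRF3, without overlap, to above it, without overlap. These lengths are those of the annotation and not the ones salmon used, and with the length of all exons STAT2 stood above IRF9 in Control.

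The genes whose profile over the 6 samples was most like that of a member were found by the root mean square difference of centred log2 CPM over 13921 genes. Nearest to IRF9 were IFIT5 (0.0922), HLA-C (0.102) and REC8 (0.129). IFIT5 is an antiviral RNA-binding protein and HLA-C a class I antigen presentation molecule, and they rose from 20.8 to 92.7 and from 279 to 1244 CPM on average. Nearest to STAT2 were RNF213 (0.111), SAMHD1 (0.129) and AGRN (0.130), of which SAMHD1 is a dNTPase that restricts viruses. For IRF1 the nearest genes were farther away, GADD45B (0.280), NFKBIA (0.447) and CPEB2 (0.460), and NFKBIA encodes the inhibitor of NF-kB. IRF7 held too few counts for such a profile to carry information. These are distances across samples that share their libraries, and nothing follows from them about shared control.

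The remainder of the pathway was followed with lists, from ligand to target, to show where the members sit in it. Counts of calls below stand beside 9.57% of all tested genes called higher and 1.02% lower. With the block these shares were 13.7% and 5.68%. The list of interferon genes did not include those of interferon alpha. Of the listed genes, 8 of 9 were in the table and 1 had enough counts, IFNB1, which encodes interferon beta and was picked out after its values were seen. It was at the floor in Control, rose at least 17.9-fold to 1.24 CPM and was called (edgeR adjusted p 0.00139). IFNL1 and IFNL3, picked out likewise, did not pass edgeR's filter. IFNL1 held 0, 0 and 0 counts in Control and 10, 7 and 2 in BRG1 samples, and IFNL3 held 1, 0 and 0 and then 4, 7 and 2. DESeq2 called neither (adjusted p 0.104 and 0.342). The other untested interferon genes in the table overlapped between groups. Of the receptor chains 5 of 6 were tested and 0 were called in either direction by edgeR or DESeq2, with 0 at an unadjusted p under 0.05. IFNAR1 and IFNAR2, which form the type I receptor, had log2 fold changes of -0.09 and 0.07 (edgeR adjusted p 0.847 and 0.873). IFNGR1 and IFNGR2 of the interferon gamma receptor had 0.38 and 0.05, IL10RB had 0.21, and IFNLR1 of the type III receptor was at the floor in both groups. With the block 1 chain, IFNGR1, was called (0.37, edgeR adjusted p 0.0297). The receptors had a median log2 fold change of 0.07, beside -0.04 for the 14246 tested genes.

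Of the 4 Janus kinases, which phosphorylate the STATs, 0 were called by edgeR or DESeq2, and 1, JAK1, was higher at an unadjusted p under 0.05. JAK1 had a log2 fold change of 0.49 (edgeR adjusted p 0.131), JAK2 of 0.04, JAK3 of -0.01 and TYK2, the partner of IFNAR1, of -0.16. JAK1 was called with the block (0.47, edgeR adjusted p 0.0311). Of 5 further STAT genes 1 was called higher and 0 lower, and the median was 0.24. The called gene was STAT4, which carries interleukin signals in lymphocytes, at the floor in Control and at least 5.95-fold higher with BRG1 (edgeR adjusted p 0.0144). It was not called without Control replicate 1 or 3, without BRG1 replicate 1 or without both samples numbered 3. STAT3 had a log2 fold change of 0.35 (edgeR adjusted p 0.352, and 0.0201 with the block), STAT5A of -0.41, STAT5B of -0.05 and STAT6 of 0.24. IRF4, a lymphocyte factor, held too few counts to be tested.

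Among kinases and adaptors that activate the IRFs, 9 of 10 in the table were tested, 1 was called higher and 0 lower, with a median of 0.13. The called gene was TMEM173, which encodes STING and was singled out after its values were seen. It was at the floor in Control and rose at least 8.67-fold with BRG1 (edgeR adjusted p 0.0198). MAVS, the adaptor of the RNA sensors, and IRAK1 had log2 fold changes of 0.13 and 0.26 and were not called. With the block 3 were called higher, TMEM173, TICAM1 and TRAF6, the last 2 being adaptors of Toll-like receptor signaling named after their values were seen. TRAF6 had a log2 fold change of 1.70 (11.01 to 35.5 CPM, edgeR adjusted p 0.141, and 0.00423 with the block), with folds of 4.08, 2.97 and 1.65 within numbers. TICAM1 had 0.44 (edgeR adjusted p 0.279, and 0.0284 with the block). The kinase IKBKE, likewise singled out afterwards, was at the floor in Control, at least 5.11-fold higher with BRG1 and too scarce for edgeR's filter, and DESeq2 called it (adjusted p 0.0110). Of 18 feedback and negative regulators 1 was called higher and 0 lower, beside 9.57% and 1.02% of all tested genes, with a median of -0.01. That gene was USP18, which removes ISG15 from proteins and dampens the type I receptor, at 3.48 (10.9 to 121 CPM, edgeR adjusted p 4.9e-05). The phosphatase PTPN11 and the SUMO ligase PIAS3 had -0.20 each. With the block 3 were called higher, USP18, SOCS3 (0.83, edgeR adjusted p 0.00602) and IRF2BP2 (0.60, edgeR adjusted p 0.0227), the last 2 named after their values were seen. That count stands beside 13.7% of all tested genes, and nothing is read from it.

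The target genes of the factors come last, and no test compared the lists with each other. These lists were drawn up with earlier results of these data known. Their shares of called genes are therefore a description, and nothing is read from them. Of 34 ISGF3 targets 33 were called higher and 0 lower, beside 9.57% and 1.02% of all tested genes, with a median log2 fold change of 6.26. MX2, IFITM1 and SAMD9, antiviral effectors, were at the floor in Control and at least 114-fold, 526-fold and 217.5-fold higher with BRG1. They were named by their fitted log2 fold changes, which for such genes depend on the fit, so no order among the targets is read from them. The exception was EPSTI1, with a log2 fold change of -1.11 (1.44 to 0.679 CPM, edgeR adjusted p 0.326). Of 26 tested targets of IRF1 and of gamma-activated sites 21 were called higher and 0 lower, with a median of 2.05. Of these GBP2, GBP3 and GBP1, guanylate-binding proteins that attack intracellular pathogens, had the largest changes among genes with a mean of at least 1 CPM, 6.91, 6.75 and 6.11. PSMB10, an immunoproteasome subunit, had 0.34 and CASP1, the inflammatory caspase, 0.87, and neither was called (edgeR adjusted p 0.145 and 0.0961), whereas with the block both were. The changes of STAT2, IRF9 and SOCS1 were thus smaller than the median of the ISGF3 targets, and no test of that difference was made. At an unadjusted p under 0.05, 0 genes of these lists were lower in the fit without the block.

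**Figure D4:**
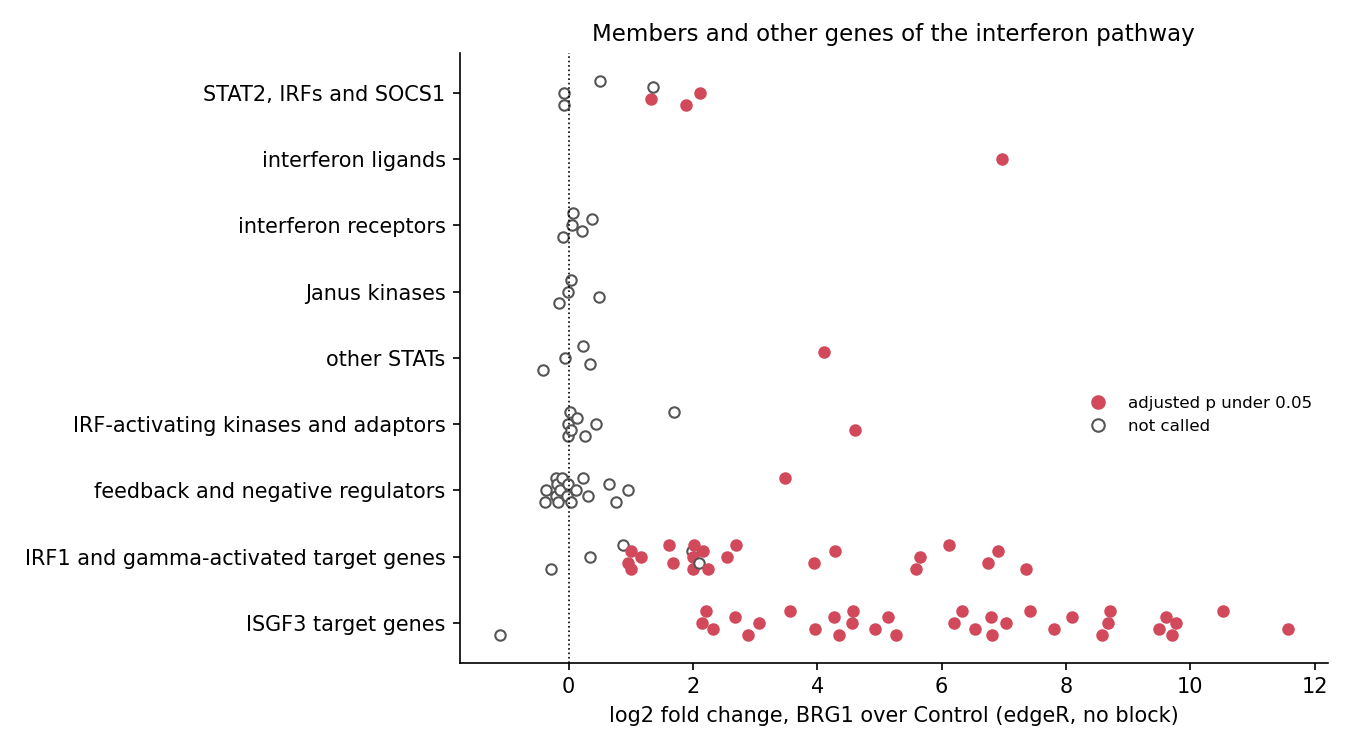
Log2 fold change of BRG1 over Control for the members and the pathway lists, 1 point per tested gene, filled where the edgeR adjusted p was under 0.05. Points of genes at the floor in Control, such as MX2, depend on the fit and are not bounds. The 33 called ISGF3 targets lie to the right, while the receptors and Janus kinases lie between -0.16 and 0.49.

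ISRE and GAS letters were counted in the same lists. The target lists are named for factors that act on such sites. A high share in them can follow from how the genes were chosen, so nothing is read from it. The ISRE core was in a window of 21 of the 28 ISGF3 targets that had a window (75.0%) and of 12 of 17 targets of IRF1 and gamma-activated sites (70.6%), against 4.38% of 27305 genes. It was in 3 of 7 interferon genes (42.9%), in 1 of 9 kinases and adaptors (11.1%) and in none of 5 receptor chains, 4 Janus kinases, 5 further STATs or 13 feedback regulators (0 in each). The GAS was in 3 of 7 interferon genes (42.9%), 2 of 5 receptor chains (40.0%), 2 of 13 feedback regulators (15.4%), 1 of 9 kinases and adaptors (11.1%) and 0 of the Janus kinases and further STATs. Among the members SOCS1 was the 1 of 6 with the ISRE core. IRF9 and IRF1 carried the GAS, as did 7 of the 28 and 5 of the 17 targets and 9.38% of all genes.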

How the data were processed

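The authors aligned reads of unstranded poly(A) libraries (500 ng RNA, 78-base pairs) with STAR (2.5.3a) to GENCODE 24 on hg38, quantified transcripts with Salmon (0.8.2) and used tximport to reach gene level. What the authors deposited are estimated counts, that is TPM scaled by transcript length and library size, so reads that fit several genes are divided by a model.

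Estimated counts were rounded. BRG1 was compared with Control by edgeR's quasi-likelihood test (4.0.16, R 4.3.3) with TMM factors and filterByExpr, with Benjamini-Hochberg adjustment over 14246 genes and calls at an adjusted p under 0.05. The labels number the replicates without saying that cultures were separate, so p-values measure the spread between these samples, which may be technical. The study names DESeq2, which made more false calls than edgeR on simulated counts and became an alternative (1.42.0), beside limma-voom (3.58.1), RLE factors, no low-count filter, no rounding, other thresholds and each replicate left out. Replicate numbers were taken to pair the samples, because deviations from the group means correlated across 12528 genes at 0.527, 0.536 and 0.596 for numbers 1 to 3, each over 0.1. The fit with the number as a block is given where it changes a call. Libraries held 29699741 to 63613710 counts, which limits precision for scarce genes. SE is the log2 fold change over the root of F. A group at 3 counts or fewer in every sample was at the floor, and folds against it use 3 counts per library.

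The members and lists were chosen with earlier results of these data known. Named were the members, SMARCA4, up to 3 called genes of largest change with a mean of at least 1 CPM and up to 2 uncalled genes of highest mean per list, lists of 6 or fewer in full, and the 3 genes nearest in profile to STAT2, IRF9, IRF1 and IRF7. The values of 2 listed genes are not reported here, and list counts leave them out. Coordinates and lengths are from GENCODE 44 (GRCh38). Each fit was tested on simulated data, except those that leave out samples or skip rounding. The simulated counts took their dispersions from an unblocked edgeR fit and held no effect of the replicate number. They therefore do not show how the fits with the block perform on these data.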

Additional observations from a re-analysis of the deposited data

How the results depend on the processing

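STAT2 and IRF9 were called higher under every alternative run, with log2 fold changes from 1.23 to 1.46 and from 2.06 to 2.20. The counts of called ISGF3 targets and of targets of IRF1 and gamma-activated sites stayed within 1.5 times. The cause of the following shifts was not tested. Members called higher (3) were 5 with the replicate block in edgeR or DESeq2, and 2 to 3 when a replicate was left out, SOCS1 being lost without any sample but BRG1 replicate 3. Genes called higher (1364) were 2086 with DESeq2 and the block and 1028 to 1795 with a replicate left out. Genes called lower (146) were 291 with DESeq2, 809 with the block, 1022 with DESeq2 and the block, 31 at an adjusted p under 0.01, 5 at an absolute log2 fold change of at least 1, and 39 (without BRG1 replicate 2) to 256 (without BRG1 replicate 3) with a replicate left out. With the block in edgeR and in DESeq2, called higher were 1 receptor and 1 Janus kinase (0 in the unblocked fit), and 3 feedback regulators (1), and DESeq2 with the block also called 1 feedback regulator lower (0). Janus kinases called were 1 without both samples numbered 3 and 0 to 1 with a replicate left out. Further STATs called (1) were 2 with the block in edgeR or DESeq2, 0 at an adjusted p under 0.01 or without both samples numbered 3, and 0 to 1 with a replicate left out, 0 without Control replicate 1 or 3 or BRG1 replicate 1. Kinases and adaptors called (1) were 2 with DESeq2, no filter or without both samples numbered 3, 3 with the block, 5 with DESeq2 and the block, 0 at an adjusted p under 0.01, and 0 (without Control replicate 2 or BRG1 replicate 1) to 3 (without BRG1 replicate 3) with a replicate left out. IRF3 (-0.07) ran from -0.16 to 0.07 with a replicate left out, turning without Control replicate 3, and was 0.01 without both samples numbered 3, and IRF5 (-0.07) ran from -0.11 to 0.04, turning without BRG1 replicate 1, none of them called. Between 3 (all exons) and 4 (no length) members changed rank by level in Control and between 2 and 3 in BRG1 samples. With 3 spacer bases in the ISRE 0 member windows matched, as with 4 in the GAS. The fit with the block changed no member's call but those of IRF1 and IRF2. Leaving out both samples numbered 3 and using the length of all exons were chosen after seeing the data. Alignment of the IRF proteins was not run. Low counts limit what can be said of IRF7 and IRF8.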
